A study of Mus musculus with 9 samples.

Results

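The T-box transcription factors Tbx1, Tbx2, Tbx3, Tbx4, Tbx5, Tbx15, Tbx18 and Tbx20 were compared between mammary tumours of 3 mouse cell lines. These 8 genes were taken out of 19938 measured genes. They were chosen by name from a list drawn up with earlier values of these data known, as the features annotated with exactly 1 of these symbols. Where a gene had several such features, the one with the highest mean over the 9 arrays would have been used, but each of the 8 genes had only 1, so the measured values settled no choice of feature. The tumours grew from the lines NDL, Met1 and SSM2, with 3 samples per line. Cells of all 3 lines were transplanted on both sides into uncleared mammary fat pads, which keep the host's own ducts and stroma, of FVB/NJ females that were 6 to 8 weeks old. Tumours were taken at a width of 5 to 10 mm and snap-frozen, and the labels name no treatment. By way of background, an activated ErbB2 (neu) transgene drives NDL, polyoma middle T drove the tumour from which Met1 was derived, and SSM2 is a further mouse mammary tumour line. Each oncogenic background is represented by 1 line, so line and driver cannot be told apart. The labels do not state that the samples of a line came from separate animals, so p-values measure the spread between samples, which may be technical.

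T-box proteins share a DNA-binding domain, the T-box, that recognises a short palindromic element and its half-sites. They control cell identity in the embryo, some mainly as activators (Tbx1, Tbx4, Tbx5) and others mainly as repressors (Tbx2, Tbx3, Tbx15, Tbx18), while Tbx20 can do either. In the mammary gland Tbx3 is required for the formation of the mammary placode, Tbx2 takes part in the same step, and both are known in breast cancer for silencing cell-cycle inhibitors and E-cadherin.

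Levels are log2 signals from Affymetrix Mouse Gene 1.0 ST arrays, on which 1 unit is a doubling, and each probe set has its own scale, so no level is set against that of another gene. The 25th percentile of gene means over the arrays was 4.91 and the median 6.45. The 3 measured Y-linked transcripts, a background reading in female hosts, lay between 2.61 and 3.85. The upper quartile of gene signal ranged from 7.84 to 8.09 over the 9 arrays. Arrays of 1 line correlated at r from 0.947 to 0.995, and arrays of different lines at r from 0.891 to 0.949, taken across genes, which are not replicates. Luminal epithelial markers (12 of 12 measured) averaged 9.10 ± 0.10 (SD, n = 3) in NDL, 6.99 ± 0.54 in Met1 and 10.79 ± 0.14 in SSM2. In Met1 the keratins Krt8 (7.89) and Krt18 (8.79) were lower than in both other lines but still above the 25th percentile, whereas the progesterone receptor Pgr was under it in both Met1 (4.50) and NDL (4.87).

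Between lines, Tbx15 was high in Met1 alone, Tbx3 was high in SSM2 alone, and Tbx2 was modestly higher in NDL than in both other lines. Tbx1 was lower in Met1 than in SSM2. Tbx4, Tbx5, Tbx18 and Tbx20 passed no test between lines. With limma fitted over all genes and a call at an adjusted p under 0.05 (Benjamini-Hochberg), 2 of the 8 genes were called between NDL and Met1, where 19.1% of all genes were. Between NDL and SSM2 the count was again 2 of 8, against 16.9% of all genes. Between Met1 and SSM2 it was 3 of 8, against 11.8% of all genes. Since 1 gene of the 8 is 12.5%, no excess of T-box genes is read from these counts. The NDL arrays weigh on them: without NDL replicate 3 the first count was 4, with Tbx1 and Tbx5 added, while the calls over all genes went from 3814 to 6631, and without NDL replicates 1 and 2 it was 1, with 1702 calls over all genes. By direction, NDL was called higher than Met1 for 1 of the 8 and lower for 1, beside 8.88% and 10.2% of all genes. NDL was called higher than SSM2 for 1 and lower for 1, beside 9.35% and 7.52%. Met1 was called higher than SSM2 for 1 and lower for 2, beside 7.1% and 4.71%. The 3 comparisons share arrays pairwise and are not independent of one another. Log2 differences below are the first line minus the second, in the order NDL, Met1, SSM2, so a negative value means that the later line was higher.

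**Figure D1:**
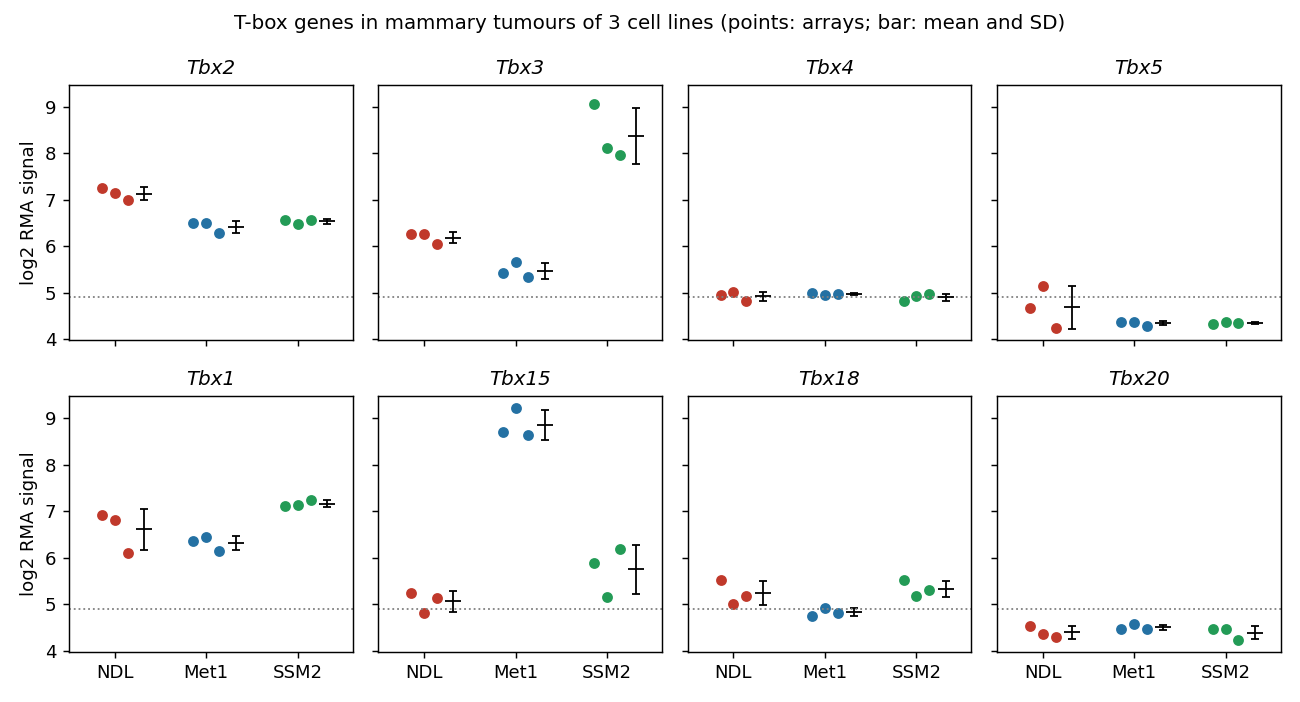
Log2 RMA signal of each of the 8 T-box genes (vertical axis) on the 3 arrays of each line (coloured points; horizontal axis), with the mean and SD in black and the 25th percentile of gene means, 4.91, dotted. Tbx15 stands at 8.63 or more on the Met1 arrays and at 6.20 or less on the others, and Tbx3 at 7.96 or more on the SSM2 arrays and 6.26 or less on the others.

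Tbx15, a factor of the dermis and skeleton that also marks certain muscle fibres and fat depots, had the widest spread between lines of the 8. Its signal was 8.70, 9.23 and 8.63 on the Met1 arrays, 5.23, 4.80 and 5.14 on the NDL arrays, and 5.89, 5.16 and 6.20 on the SSM2 arrays. All 3 Met1 arrays lay above all 6 others, and the NDL and SSM2 arrays overlapped. NDL was lower than Met1 13.9-fold (log2 difference -3.80, SE 0.28, 95% interval -4.43 to -3.16, limma adjusted p = 8.18e-05). Met1 was higher than SSM2 by 3.11 (8.61-fold, SE 0.28, 95% interval 2.48 to 3.74, adjusted p = 0.000319). Both calls held under all 20 alternative settings, with log2 differences from -3.91 to -3.61 and from 2.81 to 3.33. NDL, whose Tbx15 mean of 5.06 lay close to the 25th percentile, was below SSM2 by a log2 difference of -0.69 that missed the threshold (95% interval -1.32 to -0.06, adjusted p = 0.119). The array SSM2 replicate 2 decides that result: without it the log2 difference was -0.98 and the adjusted p 0.031. The fold between NDL and Met1 has an uncertain size, since the NDL signal may be near background, where levels are compressed.

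Tbx3, required for mammary placode formation and a repressor of cell-cycle inhibitors, was highest in SSM2. Its signal was 9.07, 8.12 and 7.96 on the SSM2 arrays, 6.26, 6.26 and 6.05 on the NDL arrays, and 5.44, 5.66 and 5.33 on the Met1 arrays. The 3 lines did not overlap at any point, with SSM2 highest, NDL between and Met1 lowest, and SSM2 replicate 1 stood above the other SSM2 arrays. SSM2 exceeded NDL 4.58-fold (log2 difference NDL minus SSM2 -2.19, SE 0.27, 95% interval -2.80 to -1.59, limma adjusted p = 0.00104). It exceeded Met1 7.5-fold (log2 difference Met1 minus SSM2 -2.91, SE 0.27, 95% interval -3.52 to -2.30, adjusted p = 0.000349). Both of these calls held under all 20 alternatives, with log2 differences from -2.41 to -1.85 and from -3.12 to -2.56. The step from Met1 to NDL was 0.71 (1.64-fold, 95% interval 0.11 to 1.32) and did not pass (adjusted p = 0.101). SSM2 replicate 1, which widens the spread shared by all lines, decides this: without it the adjusted p was 0.00754, and with NDL and Met1 fitted alone it was 0.0108, at the same difference of 0.71. The values of NDL replicates 1 and 2 are identical in the deposited table, a feature shared by 7602 genes (38.1%) that have equal values on at least 2 arrays, and its effect on the spread was not tested.

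Tbx2, the closest relative of Tbx3 and likewise a repressor, differed less but with a narrow spread. Its signal was 7.26, 7.16 and 6.99 on the NDL arrays, 6.50, 6.50 and 6.28 on the Met1 arrays, and 6.56, 6.48 and 6.57 on the SSM2 arrays. Each NDL array lay above all Met1 and SSM2 arrays, and Met1 and SSM2 overlapped. NDL was higher than Met1 1.64-fold (log2 difference 0.71, SE 0.11, 95% interval 0.46 to 0.96, limma adjusted p = 0.00282) and higher than SSM2 1.51-fold (0.60, SE 0.11, 95% interval 0.35 to 0.85, adjusted p = 0.00791). Each call held under 19 of 20 alternatives. With NDL replicates 1 and 2 both left out, the difference from Met1 was 0.57 (adjusted p = 0.0543) and that from SSM2 0.46 (adjusted p = 0.114). Met1 and SSM2 differed by -0.11 (95% interval -0.36 to 0.14, adjusted p = 0.663).

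Tbx4 and Tbx5, limb and heart regulators, lie next to Tbx2 and Tbx3 in the RefSeq order of chromosomes 11 and 5. Tbx4 ranged only from 4.82 to 5.01 over the 9 arrays, and its 3 line means, 4.93 ± 0.10 in NDL, 4.97 ± 0.03 in Met1 and 4.91 ± 0.08 in SSM2 (SD, n = 3), overlapped in every pair. Its widest difference, between Met1 and SSM2, was 0.06 (95% interval -0.15 to 0.28, limma adjusted p = 0.8). A signal difference of the size seen for Tbx2 lies outside this interval. The 3 means lay close to the 25th percentile, 4.91, where levels may be compressed, so the interval does not bound the difference in RNA. Tbx5 was 4.67, 5.15 and 4.24 on the NDL arrays, 4.29 to 4.38 in Met1 and 4.32 to 4.36 in SSM2. NDL replicate 3 lay below all arrays of the other lines and NDL replicates 1 and 2 above them. The difference of 0.34 from Met1 (95% interval -0.11 to 0.80) had an adjusted p of 0.272, and that from SSM2, also 0.34, one of 0.248. Without NDL replicate 3 both differences were 0.56, with adjusted p of 0.0212 and 0.0202. All 3 Tbx5 line means were under the 25th percentile, so these values may sit near background.

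Tbx1, a regulator of the pharyngeal arches, heart and thymus, is the only one of the 4 called genes for which a promoter entry was matched in RefSeq. Entries were matched for 4 of the 8 genes (Tbx1, Tbx4, Tbx18 and Tbx20). The 250 bases before each of the 2 listed Tbx1 starts are shown because they let the gene's start regions be seen beside its small difference between lines. Capitals mark CG dinucleotides, the sites of DNA methylation, and both windows are read 5′ to 3′ on the minus strand of GRCm38.p6. The first is chr16:18588900-18589149 and the second chr16:18590672-18590921.
Tbx1 upstream window 1: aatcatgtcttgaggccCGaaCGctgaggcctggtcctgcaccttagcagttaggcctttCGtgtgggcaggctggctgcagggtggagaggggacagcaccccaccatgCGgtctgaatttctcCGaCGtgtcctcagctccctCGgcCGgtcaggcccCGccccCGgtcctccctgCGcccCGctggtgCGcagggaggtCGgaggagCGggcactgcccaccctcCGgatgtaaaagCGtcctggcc
Tbx1 upstream window 2: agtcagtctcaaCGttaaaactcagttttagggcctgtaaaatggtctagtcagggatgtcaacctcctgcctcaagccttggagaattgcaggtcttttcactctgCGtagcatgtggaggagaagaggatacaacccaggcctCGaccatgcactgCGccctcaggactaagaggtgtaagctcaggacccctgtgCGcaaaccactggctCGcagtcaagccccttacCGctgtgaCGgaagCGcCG
The first window holds 17 CG dinucleotides at 67.2% GC and the second 10 at 54.4% GC, where the median of 32851 RefSeq windows of 250 bases is 6 at 52.4%. The T-box half-site AGGTGTGA (or TCACACCT on the other strand), present in 1.12% of all windows, was in neither, nor was the shorter core GTGTGA (or TCACAC), which overlaps it and is present in 12.3%. The same held for the windows of Tbx4, Tbx18 and Tbx20. This says only that those letters are not in these windows.

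Tbx1 signal was 6.91, 6.82 and 6.10 on the NDL arrays, 6.36, 6.45 and 6.14 on the Met1 arrays, and 7.11, 7.13 and 7.24 on the SSM2 arrays. All SSM2 arrays lay above all others, while NDL replicate 3 lay below every Met1 array and NDL replicates 1 and 2 above them. Met1 was lower than SSM2 1.79-fold (log2 difference -0.84, SE 0.21, 95% interval -1.31 to -0.38, limma adjusted p = 0.031). This call is a weak one: it held under 13 of 20 alternatives. It was lost under quantile normalisation (adjusted p = 0.0635) and when any 1 of the 3 Met1 or 3 SSM2 arrays was left out (adjusted p from 0.0635 to 0.111). NDL and SSM2 did not overlap, yet the difference of -0.55 (95% interval -1.02 to -0.08) did not pass (adjusted p = 0.0996). With NDL replicates 1 and 2 left out it was -1.06 (adjusted p = 0.016). NDL and Met1 differed by 0.29 (adjusted p = 0.356), and without NDL replicate 3 by 0.55 (adjusted p = 0.0115).

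Tbx18, the closest relative of Tbx15 and a marker of mural cells, ureter and sinus node, was 5.52, 5.01 and 5.17 on the NDL arrays, 4.76, 4.93 and 4.81 on the Met1 arrays, and 5.52, 5.17 and 5.29 on the SSM2 arrays. Met1 lay below both other lines with no overlap, which is the reverse of the arrangement of Tbx15. The Met1 mean of 4.83 ± 0.09 (SD, n = 3) was under the 25th percentile. Neither difference passed: NDL minus Met1 was 0.40 (95% interval 0.05 to 0.76, limma adjusted p = 0.105) and Met1 minus SSM2 -0.50 (95% interval -0.85 to -0.15, adjusted p = 0.0757). The latter was called under 4 of the 19 alternatives that kept the gene, among them the fit of Met1 and SSM2 alone (adjusted p = 0.0459) and the fit without NDL replicate 1 (adjusted p = 0.0495). Tbx20, a heart factor, stayed between 4.23 and 4.57 on all 9 arrays, under the 25th percentile in every line. Its largest difference was 0.11 between Met1 and SSM2 (95% interval -0.14 to 0.37, adjusted p = 0.659). That no Tbx20 difference passed does not show that there was none.

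**Figure D2:**
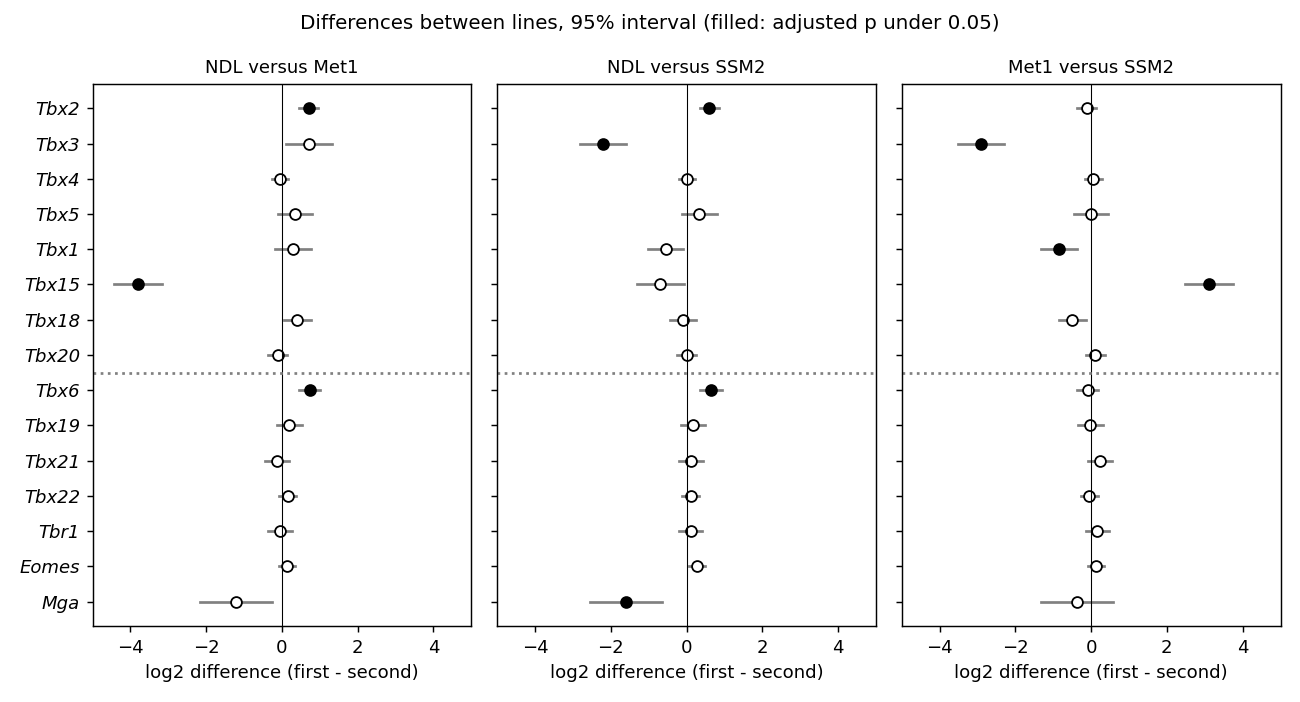
Log2 difference between lines (horizontal axis, first line minus second) for the 8 T-box genes above the dotted line and the 7 other measured T-box genes below it. Bars are 95% intervals of the limma fit and filled points have an adjusted p under 0.05; Tbx15 at -3.80 and 3.11 and Tbx3 at -2.19 and -2.91 are the points farthest from 0.

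Among the 7 other T-box genes measured, 1 was called between NDL and Met1, 2 between NDL and SSM2 and 0 between Met1 and SSM2 by limma at an adjusted p under 0.05, which brings the counts over all 15 T-box genes to 3 (20.0%), 4 (26.7%) and 3 (20.0%), beside 19.1%, 16.9% and 11.8% of all genes. Tbx6, a factor of the presomitic mesoderm, was 6.36, 6.59 and 6.50 on the NDL arrays, 5.89, 5.75 and 5.60 on the Met1 arrays, and 5.93, 5.68 and 5.90 on the SSM2 arrays. NDL lay above both other lines with no overlap, the same arrangement as Tbx2. The log2 differences were 0.73 from Met1 (SE 0.12, adjusted p = 0.00404) and 0.65 from SSM2 (adjusted p = 0.00895). With NDL replicates 1 and 2 left out the second was 0.66 with an adjusted p of 0.0811. Mga, a large protein with both a T-box and a Max-binding domain, was 5.74, 5.66 and 7.42 in NDL, 7.42, 7.61 and 7.45 in Met1, and 8.09, 7.57 and 7.93 in SSM2. NDL replicate 3 stood at the Met1 level, apart from the other NDL arrays. NDL was below SSM2 by a log2 difference of -1.59 (SE 0.42, adjusted p = 0.0345), and this call ended when any 1 array other than NDL replicate 3 was left out (adjusted p from 0.0566 to 0.124). Without NDL replicate 3 the adjusted p was 0.000251, and with that array as the only NDL sample the difference was -0.45 (adjusted p = 0.317). Tbx19, Tbx21, Tbx22, Tbr1 and Eomes were called in no comparison; the nearest was Eomes between NDL and SSM2 (0.27, adjusted p = 0.078). Tbx21 and Eomes are the T-box factors of cytotoxic lymphocytes, and the marker list of T and NK cells averaged 5.43 in NDL, 5.75 in Met1 and 5.13 in SSM2. Tbx10 and the founding gene T were not analysed here.

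Genes of T-box partner proteins were called about as often as genes in general. Of 23 measured cofactors (of 24 listed), 3 were higher and 2 lower in NDL than in Met1, 3 higher and 1 lower in NDL than in SSM2, and 2 higher and 0 lower in Met1 than in SSM2. That is 5, 4 and 2 called, beside 19.1%, 16.9% and 11.8% of all genes. The list's median log2 differences were -0.01, 0.22 and 0.12, beside 0.06, 0.09 and 0.04 over all genes. The Groucho-family corepressor Tle1 was higher in NDL than in Met1 (0.85, limma adjusted p = 0.00168) and than in SSM2 (0.69, adjusted p = 0.00574). Its short relative Tle5 was likewise higher in NDL (0.84 against Met1, 1.14 against SSM2). Ripply1, an adaptor that turns T-box activators into repressors, was higher in NDL by 0.78 against Met1 and 0.95 against SSM2. The deacetylase Hdac1, which Tbx2 and Tbx3 recruit, ran the other way, with log2 differences of -1.08 and -0.90. Mef2c, a muscle, vascular and myeloid factor, was higher in Met1 than in NDL (-1.96, adjusted p = 0.00127) and than in SSM2 (1.73, adjusted p = 0.00354), and Tle2 was higher in Met1 than in SSM2 (0.81, adjusted p = 0.0455).

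Genes described as targets of T-box factors moved in both directions. Of 20 measured (of 24 listed), 6 were higher and 3 lower in NDL than in Met1, 3 higher and 2 lower in NDL than in SSM2, and 3 higher and 4 lower in Met1 than in SSM2. That is 9, 5 and 7 called of 20, beside 19.1%, 16.9% and 11.8% of all genes. The median log2 differences were 0.20, 0.15 and 0.07, beside 0.06, 0.09 and 0.04 over all genes. Cdh1, the E-cadherin gene that Tbx2 and Tbx3 are known to repress, had means of 10.33 in NDL, 7.62 in Met1 and 11.04 in SSM2. Its highest mean was in SSM2, where Tbx3 was highest, but NDL and SSM2 were not called apart. The called log2 differences of Cdh1 were 2.71 between NDL and Met1 (limma adjusted p = 0.00173) and -3.42 between Met1 and SSM2 (adjusted p = 0.000915). Cdh1 is also on the luminal list, which was lowest in Met1. Vim, the mesenchymal filament gene, had its highest mean, 13.25, in Met1 (-1.84 for NDL minus Met1, 1.75 for Met1 minus SSM2), as did the matricellular gene Ccn1 (-1.54 and 2.03). Gja1, the connexin 43 gene repressed by Tbx2 and Tbx3 in the heart, had means of 8.51 in NDL, 9.87 in Met1 and 11.57 in SSM2 (adjusted p = 5.52e-05 for NDL against SSM2). Dll1, a Notch ligand and Tbx6 target in mesoderm, was higher in NDL, by 2.92 against Met1 and 2.88 against SSM2, the line in which Tbx6 was also highest. Lef1, the Wnt effector, was higher in NDL than in SSM2 by 2.56, and Mycn by 0.66. Aldh1a2, which makes retinoic acid, was lower in Met1 than in NDL (1.42) and than in SSM2 (-1.65). Ndrg1, repressed by Tbx2 in breast cancer cells, was higher in SSM2 than in NDL (-1.34) and than in Met1 (-1.53). Its means were 9.89 in NDL, where Tbx2 was highest, 9.70 in Met1 and 11.2 in SSM2, and NDL and Met1 were not called apart. Smad7 was higher in Met1 than in SSM2 (1.51). With 1 line per level of each factor, no relation between a factor and its targets was tested.

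Of the genes of mammary bud signalling, in which Tbx3 acts, 21 of 22 were measured. There 2 were higher and 3 lower in NDL than in Met1, 1 higher and 3 lower in NDL than in SSM2, and 3 higher and 3 lower in Met1 than in SSM2, with median log2 differences of 0.21, -0.08 and -0.13, beside 0.06, 0.09 and 0.04 over all genes. That is 5, 4 and 6 called of 21, beside 19.1%, 16.9% and 11.8% of all genes. The ligand Bmp2 had means of 4.06 in NDL, 8.22 in Met1 and 4.57 in SSM2 (-4.17, limma adjusted p = 7.52e-06, for NDL minus Met1; 3.65, adjusted p = 2.01e-05, for Met1 minus SSM2); its NDL and SSM2 means lay under the 25th percentile, so the size is uncertain. Gli3, a hedgehog-pathway factor needed for some mammary buds, was 5.49, 7.49 and 6.13 in the same order, and Eda, the ectodysplasin ligand, 5.13, 6.64 and 5.12. The receptor Fgfr2, needed for most mammary placodes, was higher in NDL than in Met1 (2.05) and higher in SSM2 than in Met1 (-3.40). The homeobox gene Msx2 was highest in SSM2 (-1.87 against NDL, -2.47 against Met1), as Tbx3 was. Bmp4 was higher in SSM2 than in NDL (-1.14), and Lef1 was higher in NDL than in Met1 (1.34). Hoxc6 was slightly higher in SSM2 than in Met1 (-0.46, limma adjusted p = 0.0483), with a Met1 mean of 4.54, under the 25th percentile.

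Several cell types contribute RNA to a whole tumour, and in such samples fewer cells of a type and less RNA per cell cannot be told apart. Markers of some of these types moved between the lines together with the T-box genes. In Met1, where Tbx15 was high, 7 of 12 luminal markers were lower than in NDL and 11 of 12 lower than in SSM2. Macrophage markers ran the other way, with 8 of 10 higher than in NDL and 5 of 10 higher than in SSM2. Of all genes, 8.88% were called lower and 10.2% higher in Met1 than in NDL. Between Met1 and SSM2, 4.71% of all genes were called lower in Met1 and 7.1% higher. Macrophage markers averaged 8.87, 10.06 and 8.97 in NDL, Met1 and SSM2. Fibroblast markers averaged 8.60 ± 0.09, 8.13 ± 0.39 and 9.26 ± 0.74 (SD, n = 3), with 4 of 12 higher and 2 lower in NDL than in Met1. Those 2 were Pdgfra, a receptor of mesenchymal cells (7.78 in NDL, 10.31 in Met1), and the matrix gene Dpt (6.99 and 10.01), so the list did not move as one. Met1 replicate 2, the highest Met1 array for Tbx15, was also the highest Met1 array for the fibroblast list (7.73, 8.50 and 8.16 on replicates 1 to 3) and for the luminal list (7.25, 7.36 and 6.37), and the lowest for the macrophage list (10.07, 9.96 and 10.15). Skeletal muscle markers, from a tissue that also expresses Tbx15, averaged 5.44, 5.29 and 5.22, with 4 of 10 under the 25th percentile in each line, and only Actn3 was called (NDL above SSM2). Adipocyte markers averaged 6.27, 5.91 and 6.54, with 0 of 9 called by limma in any comparison. Of all genes, 19.1% were called between NDL and Met1, 16.9% between NDL and SSM2 and 11.8% between Met1 and SSM2.

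In SSM2, where Tbx3 was high, the basal markers averaged 8.85, against 6.65 in NDL and 6.36 in Met1. Of the 8, 5 were higher in SSM2 in each comparison and 1, Oxtr, was higher in NDL than in SSM2 (0.77). Those higher than in NDL were Krt5, Krt14, Krt15, Krt17 and Trp63 (-4.62 to -1.66). Against Met1, Acta2 stood in place of Krt5. Of all genes, 7.52% were called higher in SSM2 than in NDL and 9.35% lower. Against Met1, 4.71% of all genes were called higher in SSM2. Of the 12 luminal markers, 5 were higher in SSM2 than in NDL and 0 lower by limma. These 5 include the hormone receptors: Esr1 averaged 7.53, 6.93 and 9.10 and Pgr 4.87, 4.50 and 9.31 in NDL, Met1 and SSM2. The claudin genes on the list did not move as one. Cldn4, also among the 5, was higher in SSM2 (8.90 in NDL, 11.48 in SSM2, limma adjusted p = 0.00025). Cldn3 (10.46 in NDL, 9.81 in SSM2) and Cldn7 (10.00 and 9.50) had their higher means in NDL but were not called between these lines. SSM2 replicate 1, the highest array for Tbx3, was also the highest of all 9 for the fibroblast list (10.00, against 9.27 and 8.52 on the other SSM2 arrays) and for the endothelial list (7.07, against 6.75 and 6.53). The same array was the highest of the 9 for the pericyte and smooth muscle list (7.49) and the adipocyte list (7.21). The luminal list on that array, 10.80, lay between those of the other SSM2 arrays, 10.64 and 10.92. Pericyte and smooth muscle markers averaged 7.07 in NDL, 6.45 in Met1 and 7.28 in SSM2. Of these, 5 of 12 were higher in NDL than in Met1 and 4 of 12 higher in SSM2 than in Met1, beside 8.88% and 4.71% of all genes. This order of means, Met1 lowest and SSM2 highest, was that of Tbx18. The luminal, basal, fibroblast, endothelial and adipocyte lists had the same order, so it singles out no cell type. The part of any of these cell types in the T-box differences was not tested.

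**Figure D3:**
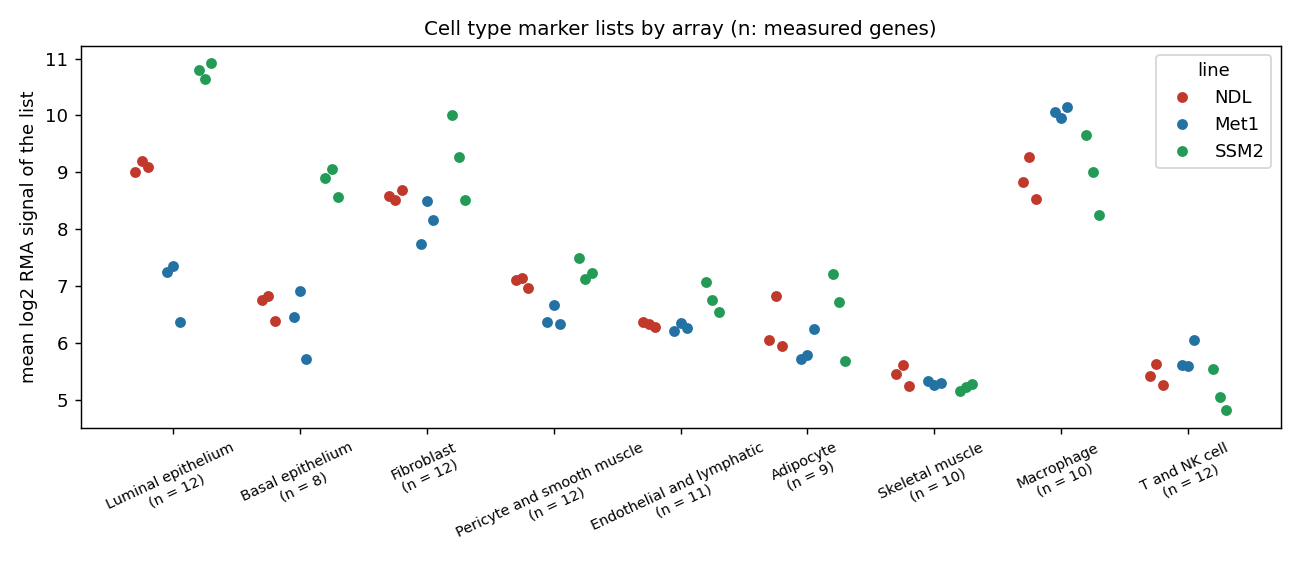
Mean log2 RMA signal of each cell type marker list (vertical axis) on each array (points, coloured by line), with the number of measured genes under each list. The luminal list is lowest in Met1 (6.99 on average) and highest in SSM2 (10.79), the macrophage list is highest in Met1 (10.06), and the fibroblast list spreads over the SSM2 arrays from 8.52 to 10.00.

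The genes whose profiles came nearest to those of the 4 called T-box genes were found among 14953 genes by the root mean square distance between log2 profiles over the 9 arrays, each centred on its own mean. For Tbx15, whose own root mean square departure from its mean was 1.68, they were Bmp2 at a distance of 0.40, Tspan6 at 0.48 and Gdpd2 at 0.51. Tspan6 had means of 6.00, 9.61 and 7.37 in NDL, Met1 and SSM2. For Tbx3, with a departure of 1.27, they were the cation channel gene Trpc6 at 0.26, the serine protease gene Prss22 at 0.30 and the glutathione reductase gene Gsr at 0.31, and Trpc6 averaged 5.53, 5.19 and 7.89. For Tbx2 (0.32) the nearest were Adam33 at 0.08, Mvb12b at 0.08 and Txnl4a at 0.09. For Tbx1 (0.42) they were Eva1a at 0.14, Dbndd2 at 0.15 and Fhod3 at 0.16. These likenesses rest on 9 arrays in 3 lines, are a description, and share the arrays and their normalisation.

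**Figure D4:**
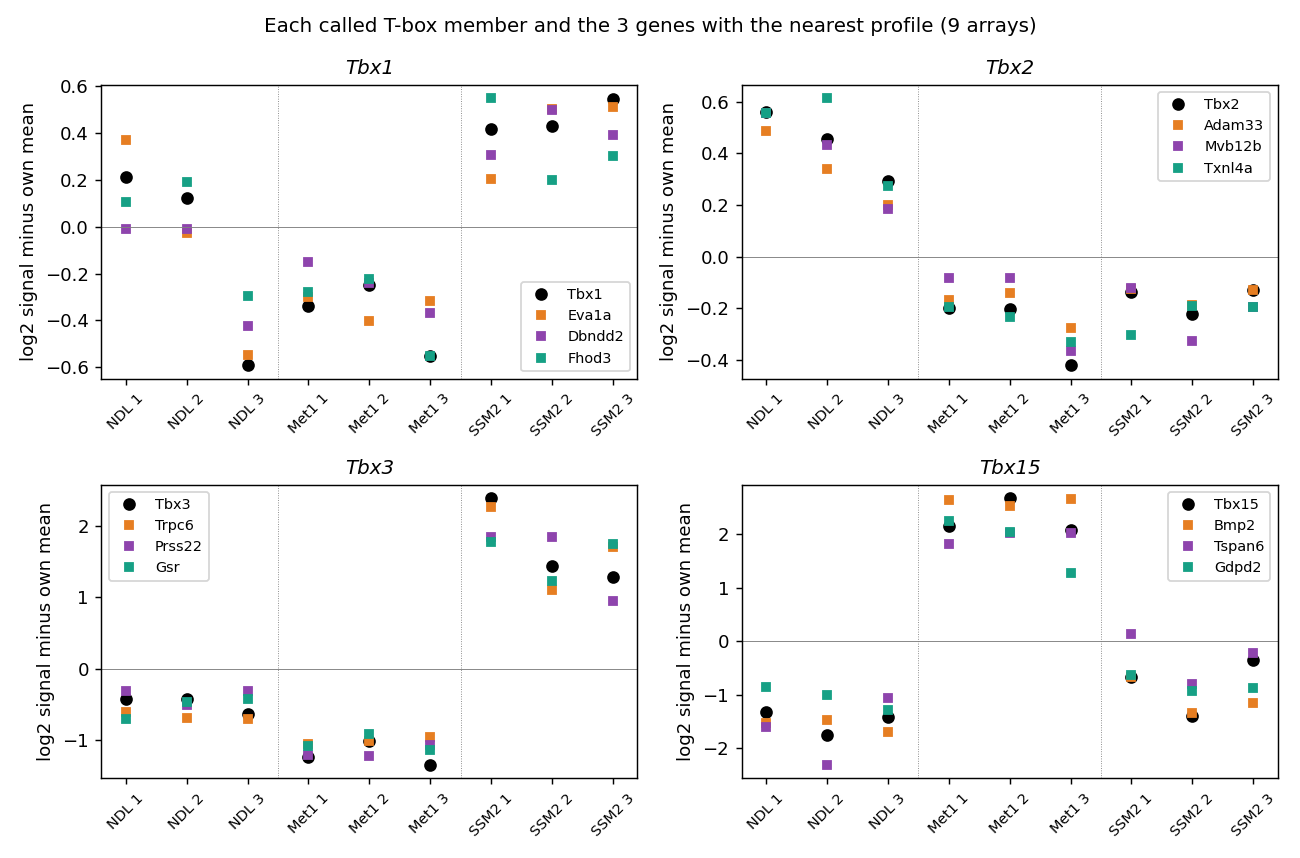
Log2 RMA signal minus each gene's own mean over the 9 arrays (vertical axis) on each array (horizontal axis), for the 4 called T-box genes (black circles) and the 3 genes nearest to each (coloured squares). Bmp2 is high with Tbx15 on the 3 Met1 arrays and Trpc6 with Tbx3 on the SSM2 arrays, replicate 1 most; the vertical scales differ between panels.

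Neighbouring genes on the chromosome gave a further view of the members. Tbx15 on chromosome 3 lies between Wars2 and Spag17, and neither was called between NDL and Met1 (log2 differences -0.41, limma adjusted p = 0.054, and 0.14, adjusted p = 0.406). Farther out, Wdr3 was lower in NDL than in Met1 (-0.998, adjusted p = 0.00944) and than in SSM2 (-0.71, adjusted p = 0.0439). Gdap2 was lower in NDL than in Met1 (-0.80, adjusted p = 0.0112) and higher in Met1 than in SSM2 (0.69, adjusted p = 0.0293). Tbx3 lies between Med13l and Tbx5 on chromosome 5, neither of them called in any comparison, and Tbx2 between Bcas3 and Tbx4 on chromosome 11, where the same held. Of the genes farther out, Spring1 near Tbx3 was higher in Met1 than in NDL (-1.10, adjusted p = 0.00127) and than in SSM2 (1.08, adjusted p = 0.00211). Appbp2 near Tbx2 was lower in NDL than in Met1 (-0.66, adjusted p = 0.0496) and than in SSM2 (-0.79, adjusted p = 0.0295). Around Tbx1, Gnb1l (-0.73, adjusted p = 0.0467) and Cdc45 (-0.76, adjusted p = 0.00924) were lower in NDL than in Met1, Cdc45 was higher in Met1 than in SSM2 (0.77, adjusted p = 0.0126), and Txnrd2 was higher in NDL than in SSM2 (0.40, adjusted p = 0.0254). Near the uncalled members, Nt5e beside Tbx18 was lower in NDL than in Met1 (-2.88, adjusted p = 0.0053). Dpy19l1 near Tbx20 was higher in Met1 than in NDL (-2.11, adjusted p = 0.000507) and than in SSM2 (1.57, adjusted p = 0.00324), and Plbd2 near Tbx5 was higher in Met1 than in SSM2 (0.92, adjusted p = 0.00431). Of the 6 nearest measured genes, 3 on each side, 2 were called around each of Tbx15 and Tbx1 between NDL and Met1. Around each other member 1 was called there, beside 19.1% of all genes. The highest count in any comparison was 3 of 6, around Tbx5 between Met1 and SSM2, beside 11.8% of all genes. Tbx3 itself was 1 of those 3. With 6 genes per member, nothing is read from these counts.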

How the data were processed

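Total RNA of 9 tumour samples (100 ng each) was hybridised to Affymetrix Mouse Gene 1.0 ST arrays, 1 per sample. The authors deposited log2 signals from RMA in oligo 1.40.2, per the submitters' processing notes; RMA corrects background, normalises by quantiles and summarises probes, so levels near background are compressed. The genome build is not given in the sources used here. Of 35556 features, 21789 carried 1 gene symbol in the platform annotation, 1621 several and 12146 none; symbols were updated to RefSeq GRCm38.p6 (21698 matched, 91 kept), and 999 genes with several features were represented by the one with the highest mean, leaving 19938 genes. Arrays have no read depth, and their number, 3 per line, limits precision.

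Lines were compared with limma 3.58.1 in R 4.3.3 (lmFit, eBayes, 6 residual and 2.42 prior degrees of freedom), 2-sided, adjusted by Benjamini-Hochberg over all genes. The procedure was also run on simulated data in which each gene had the same spread on every array. The estimated weights of the real arrays ranged from 0.311 to 3.776, so that run does not cover their unequal spread. The members and gene lists were chosen with earlier results of these data known, so member counts are set only beside the share of all genes called. All T-box genes are named. From the cofactor, target and mammary bud lists, all called members are named where a comparison has up to 5 calls. Otherwise the 3 largest per direction are named. Also named are the 3 nearest profiles and the called genes among 3 chromosome neighbours per side. The uncalled nearest neighbours of Tbx2, Tbx3 and Tbx15 were named in addition. The rule did not cover the cell type lists, so called markers there can be unnamed. The markers named (Krt8, Krt18, Pgr, Esr1, Pdgfra, Dpt, Cldn3, Cldn4, Cldn7, Oxtr, Krt5, Krt14, Krt15, Krt17, Trp63, Acta2 and Actn3) were chosen after their values were seen. Alternatives are those of the closing section. Figures used matplotlib 3.10.9 and pandas 2.3.3.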

Additional observations from a re-analysis of the deposited data

How the results depend on the processing

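Across 20 alternatives (filters at the 25th percentile and the median, cyclic loess, quantile normalisation, equal medians, an intensity trend with robust variances, array weights, mean of features, the replicate block, lines fitted in pairs, each of the 9 arrays left out, and NDL replicates 1 and 2 left out), no T-box difference called at first changed direction. The Tbx15 and Tbx3 calls held in all 20, Tbx2 in 19 each, and Tbx1 (Met1 against SSM2) in 13. Genes called between NDL and Met1, 3814 at first, ranged from 2371 to 6631 with 1 array left out, and were 1702 without NDL replicates 1 and 2. Between NDL and SSM2, 3364 at first, they ranged from 1873 to 7018, and were 1190 without NDL replicates 1 and 2 and 1755 with those lines alone. Between Met1 and SSM2, 2356 at first, they ranged from 1360 to 2754, and were 4007 with array weights. T-box members called between NDL and Met1, 2 at first, ranged from 2 to 4 with 1 array left out, and were 1 without NDL replicates 1 and 2; of the fits that left out 1 array, the one without NDL replicate 3 gave the highest count of genes in each comparison. Between NDL and SSM2 they ranged from 2 to 3, and between Met1 and SSM2, 3 at first, from 2 to 4. The cause of these shifts was not tested. With the replicate number as a replicate block, members called were 2, 2 and 3 and genes called 3343, 2779 and 1968. Deviations of same-numbered arrays from their line means correlated between -0.347 and 0.288. With 3 arrays per line, these values do not settle whether equal numbers pair samples, and the labels do not say. Filters left out the weakest T-box genes, which have no value there. Equal medians shifted the median difference of all genes between NDL and SSM2 to 0.13, from 0.09.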
